A study of Homo sapiens with 4 samples.

Results

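NRF2 is the transcription factor encoded by NFE2L2. In resting cells its partner KEAP1 holds it in the cytoplasm for degradation. Oxidants and electrophiles disable KEAP1, and NRF2 then binds antioxidant response elements in the promoters of genes that make and recycle glutathione and thioredoxin, supply NADPH, detoxify quinones and pump conjugates out of the cell. Ferroptosis is a form of cell death driven by iron and by peroxidised membrane lipids, and glutathione, GPX4, AIFM2 and iron storage in ferritin hold it back. A list of 51 genes of these systems, with the metallothioneins (small proteins that bind zinc and copper), was read from the expression tables. It was chosen by gene name, with earlier results of these data known, and 50 of the 51 were in the tables of 19626 genes. MT1G was not analysed here.

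The cells were ES-2, an established human ovarian cancer line whose labels give ovarian clear cell carcinoma, and which carries the YAP1-MAML2 (YM) fusion. Control cells (shCtl, n = 2 biological replicates) received a pLKO.1 lentivirus with a nontargeting shRNA. Depleted cells (shM2-3, n = 2) received the same vector with an shRNA against a MAML2 sequence that the fusion shares, so loss of MAML2 and loss of the fusion cannot be told apart in these libraries. Both groups kept the fusion gene and carried the virus. According to the labels, virus was added for 8 h on each of 2 days and RNA was taken 96 h after the first addition, whereas the study's methods give a shorter time. One shRNA and one cell line were sequenced. The comparison asks which transcripts depend on the fusion or on MAML2.

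The libraries summed to between 20051083 and 23978660 estimated counts. MAML2 counts, which can include reads of the fusion, fell by 1.40 on the log2 scale (standard error, SE, 0.0688). They were 1436 and 1402 in the control libraries and 634 and 553 in the depleted ones. YAP1, which supplies the N-terminal part of the fusion, rose by 0.42 (SE 0.0365), so its counts did not show the loss of the fusion. Of 13 ovarian and clear cell markers in the tables, 8 stayed at or under an RPKM of 1 in all 4 libraries, among them NAPSA, PAX8 and EPCAM, while KRT7, KRT8, KRT18, VIM and ARID1A were above it. KRT7 was called lower at -1.26 and KRT8 at -1.22 on the log2 scale, and ARID1A rose by 0.39. The summed RPKM of the list was between 3525 and 3620 in shCtl and between 2367 and 2423 in shM2-3, most of it VIM. RPKM summed over all genes was also lower, at 287746 and 295653 in shM2-3 against 324319 and 325563 in shCtl. Fibroblast (5 of 6), leukocyte (4 of 6) and endothelial (3 of 5) markers were mostly at or under an RPKM of 1 throughout. Their summed RPKM in shCtl and shM2-3 was at most 5.19 and 9.99 for fibroblast markers, 58.6 and 41.3 for leukocyte markers (most of it CD68), and 10.6 and 5.65 for endothelial markers. PTPRC and VWF were under 0.1 in every library. Within the lists, PECAM1 was called higher while the endothelial sum was lower. PECAM1 had counts of 6 and 5 in the controls and 256 and 163 after depletion. Its RPKM was above 1 only in shM2-3 replicate 1, at 1.31, so it was tested only through the group where it is high. CDH5 was called lower at -1.17. The fibroblast marker FAP was called higher at 1.07, and the leukocyte marker CD14, not tested, had counts of 3 and 4 in the controls and 42 and 37 after depletion. The part of these differences in the results below was not tested. In bulk RNA, fewer cells of a type and less RNA per cell cannot be told apart.

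Estimated counts were compared with edgeR's quasi-likelihood test over the 12157 genes that had an RPKM (reads scaled by transcript length and by mapped reads) above 1 in at least 1 library. Adjusted p values below come from that test with Benjamini-Hochberg adjustment over all 12157 genes, unless another fit is named. Where a library is left out, its group holds 1 library, which is assumed to vary like the other group. A gene is said to have risen or fallen at an adjusted p of 0.05 or less, and is called when its fold change was also 2 or more. Of the 50 genes, 44 were tested. Of these, 3 were called lower (OSGIN1, AIFM2 and GSTM3) and 4 were called higher (ABCC3, MT1F, MT1X and NQO1). That is 15.9% of the tested members, against 18.2% of all tested genes (8.93% lower and 9.24% higher). Without the fold limit, 20 members fell, 14 rose and 10 did neither, which is 77.3% with a change against 72.7% of all tested genes (36.4% lower and 36.3% higher). At a fold limit of 1.5 in place of 2, 9 members were lower and 9 higher, and 18.9% of all tested genes passed in each direction. These shares are near those of all genes. The median log2 fold change was -0.09 over the members and -0.004 over all tested genes, and the quartiles of the members were -0.47 and 0.34. The role groups are described one by one.

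**Figure D1:**
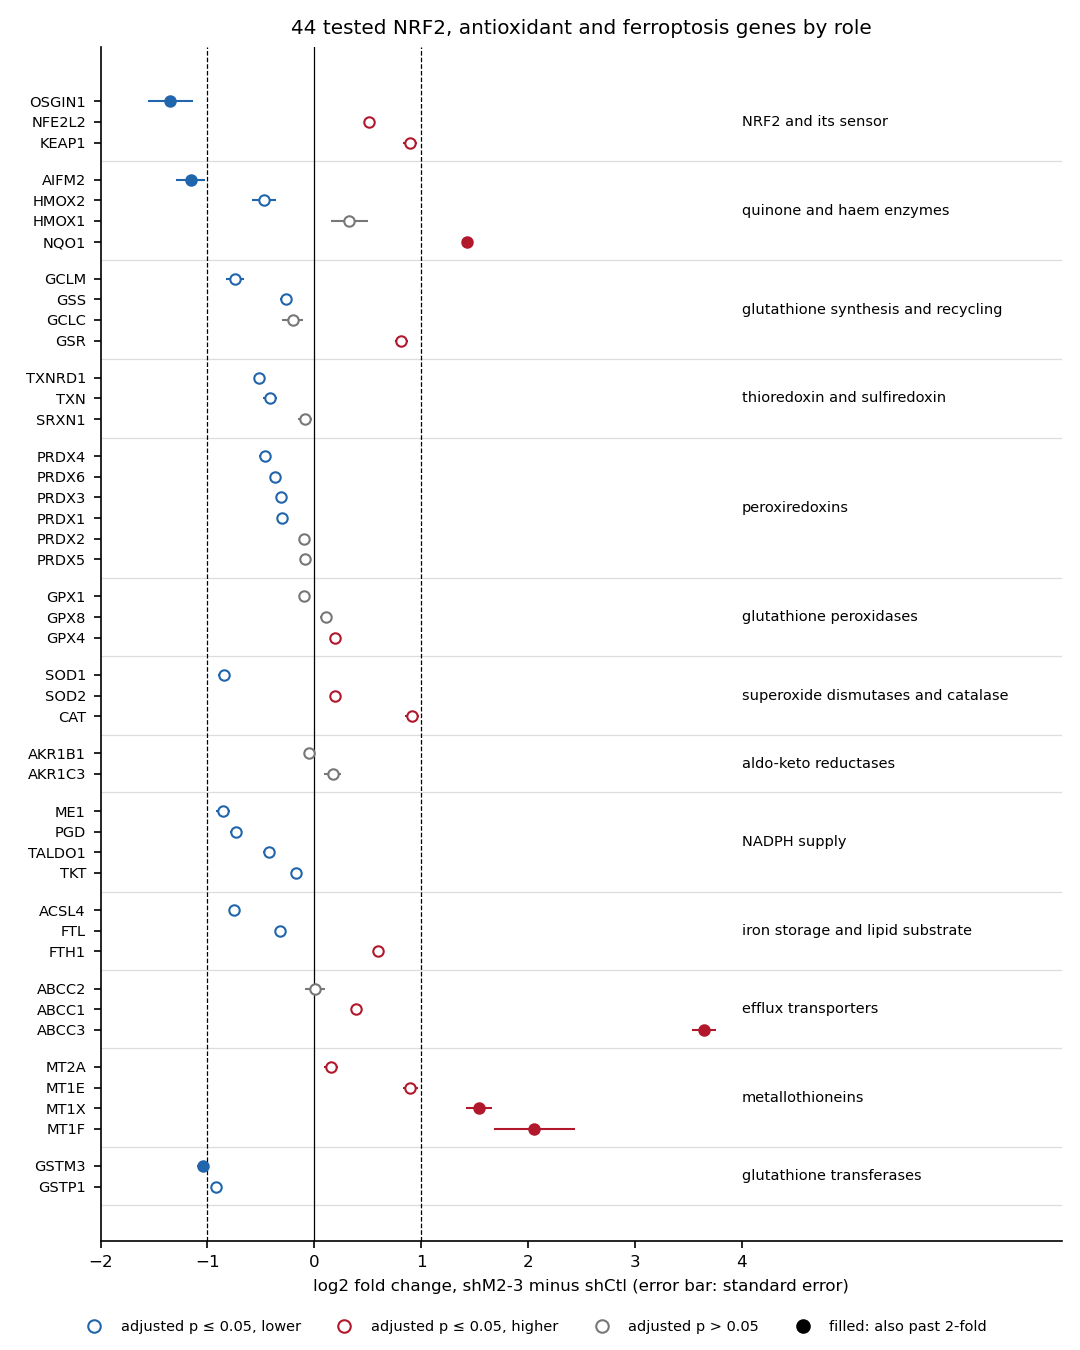
Log2 fold change (shM2-3 minus shCtl) of the 44 tested genes, grouped by role. Points are edgeR estimates from 2 libraries per group, bars are SEs, dashed lines mark a 2-fold change, and filled points passed both the adjusted p and the 2-fold limit. ABCC3 lies furthest to the right at 3.65 and OSGIN1 furthest to the left at -1.35. The points of the thioredoxin, peroxiredoxin, NADPH supply and glutathione transferase groups lie wholly left of zero. Those of the efflux transporters and metallothioneins lie wholly right of it, ABCC2 only just, at 0.01.

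Levels spanned a wide range. On the RPKM scale, which corrects for transcript length, MT2A (1251 ± 19.9, SD, n = 2) and FTL (1136 ± 13.6, SD, n = 2) were the most abundant in shCtl. GSTP1 (312 ± 5.97, SD, n = 2) and FTH1 (308 ± 10.1, SD, n = 2) followed, with means closer together than their SDs. In shM2-3, MT2A stayed first at 1330 ± 162 and FTL second at 871 ± 36.3 (SD, n = 2 each), while FTH1 came next at 445 ± 4.52 (SD, n = 2) and GSTP1 dropped behind MT1E. Together the 50 genes took 0.701% and 0.707% of all counts in shCtl and 0.640% and 0.665% in shM2-3.

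**Figure D2:**
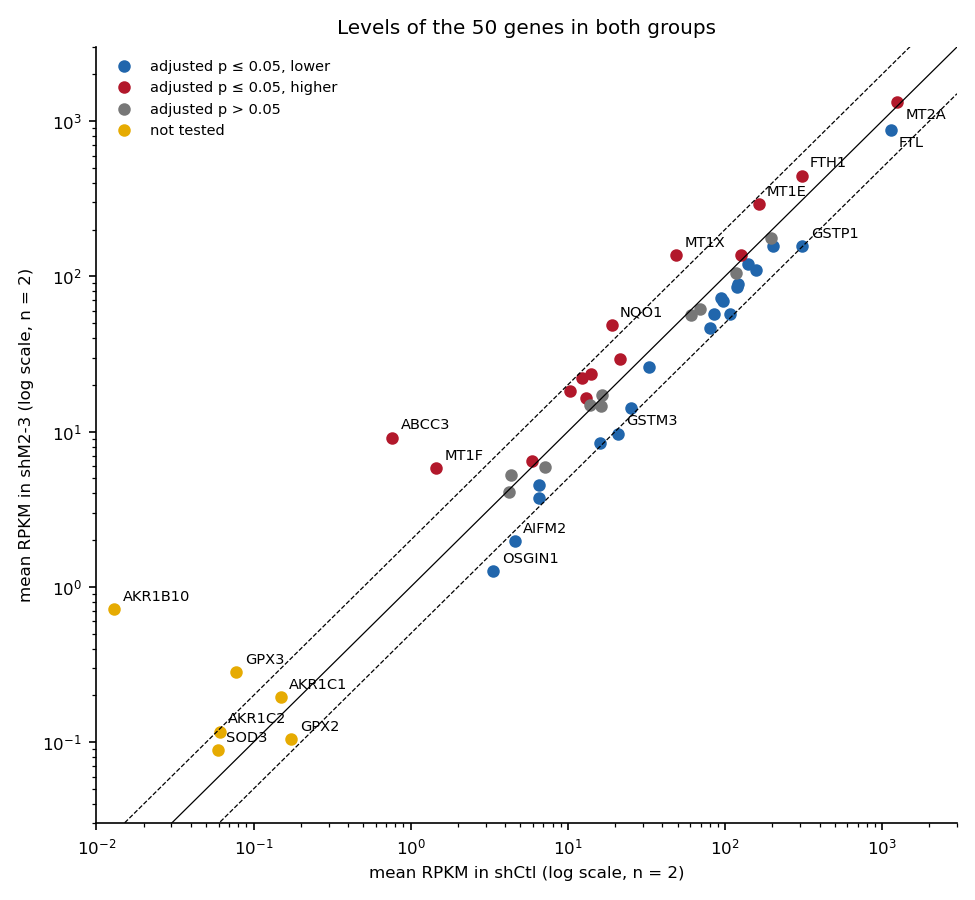
Mean RPKM of each gene in shM2-3 (vertical) against shCtl (horizontal), both on log scales, n = 2 libraries per group. The solid line marks equal levels and the dashed lines a 2-fold difference. ABCC3, MT1F, MT1X and NQO1 lie above the upper dashed line, OSGIN1, AIFM2 and GSTM3 lie below the lower one, and the 6 untested genes lie at the low end of both axes, with AKR1B10 and GPX3 above the upper dashed line.

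Short stretches of promoter sequence are shown because the antioxidant response element is the sequence that NRF2 binds and the metal response element the one known to drive metallothioneins. RefSeq promoters (250 bases before to 50 after the gene start, GRCh38.p14, which is hg38) were found for 38 of the 50 genes and were searched on both strands. The antioxidant response element core TGACNNNGC was present in 9 of the 38 (23.7%), against 13.6% of all 27305 promoters and 15.3% of those of tested genes. The AP-1 site TGANTCA, whose letters can lie within that core, was present in 5 (13.2%, against 7.76% of all promoters and 4.53% of those of tested genes). The metal response element, searched as TGCACNC or TGCGCNC, was present in 22 (57.9%, against 29.3% and 39.0%), and the TEAD site GGAATG in 3 (7.89%, against 14.1% and 10.9%). The GGAATG matches were in SRXN1 and PRDX5, which neither rose nor fell, and in SOD3, which was not tested. A match is a run of letters and no evidence of binding, and elements further from the gene start, or in genes without an entry, were not searched.

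The 8 tested members with the antioxidant core were AIFM2, GCLM, TXNRD1, PGD, ME1 and GSTP1, which fell, and MT1X and MT2A, which rose. Over all 1469 tested genes with the core, 37.7% fell and 35.2% rose, close to the 36.4% and 36.3% of all tested genes. In AIFM2, ME1, GSTP1 and MT2A the core overlapped an AP-1 site. Capitals mark the element in each line, read along the gene's own strand. In AIFM2 and GCLM the core itself lies on the opposite strand, so its reverse complement is printed. TXNRD1 and ME1 each held a second core, from -8 to 1 and from 12 to 20, which is not shown.
AIFM2 (core from -22 to -14, chr10:70132829-70132858, minus strand): ccagcacgagtGCTGAGTCAcgccccgccc
ME1 (core from -137 to -129, chr6:83431170-83431199, minus strand): atctcctgccaTGACTCAGCgcttctcgca
GSTP1 (core from -66 to -58, chr11:67583735-67583764, plus strand): ggccggcgccgTGACTCAGCactggggcgg
MT2A (core from -104 to -96, chr16:56608469-56608498, plus strand): ggagccgcaagTGACTCAGCgcggggcgtg
GCLM (core from -34 to -26, chr1:93909446-93909475, minus strand): ctacgatttctGCTTAGTCAttgtcttcca
TXNRD1 (core from -99 to -91, chr12:104215669-104215698, plus strand): tacacgggctaTGACTTCGCtgttgtcacc
OSGIN1 (AP-1 site without the core, from -97 to -91, chr16:83953131-83953160, plus strand): acgggcccctgcTGACTCAcgcttatgaaa

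The MT1X promoter held 4 matches to the metal response element and that of MT2A held 8. Of the 21 tested members with the element, 10 fell, 4 rose and 7 did neither. Over all 3732 tested genes with it, 36.8% fell and 36.4% rose. The 4 matches of MT1X are shown because this gene was called higher. The lines read along the plus strand of chromosome 16, and at site C the element itself lies on the minus strand.
MT1X site A (from -150 to -144, chr16:56682308-56682337): caggccccgcggTGCGCCCggcgctgggct
MT1X site B (from -122 to -116, chr16:56682336-56682365): ctcacgggttgcTGCACCCggcccaggatc
MT1X site C (from -78 to -72, chr16:56682380-56682409): ctcagcaggggcGGGTGCAaggacgaggcg
MT1X site D (from -53 to -47, chr16:56682405-56682434): aggcggggcctcTGCGCCCggccctcttcc

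NFE2L2 and its sensor KEAP1 both rose, while OSGIN1, a growth inhibitor induced through NRF2, fell. NFE2L2 had an RPKM of 21.4 and 21.5 in shCtl and 28.9 and 29.5 in shM2-3, a difference of 0.51 on the log2 scale (SE 0.0470, edgeR adjusted p = 3.37e-07). KEAP1 had 10.3 and 10.3 in shCtl and 18.8 and 17.8 in shM2-3, a difference of 0.90 on the log2 scale (SE 0.0687, edgeR adjusted p = 5.34e-08), just short of 2-fold. The KEAP1/NFE2L2 ratio of RPKM was 0.480 and 0.481 in shCtl and 0.651 and 0.604 in shM2-3, so the transcript of the inhibitor rose further than that of the factor in both depleted libraries. OSGIN1 had an RPKM of 3.20 and 3.52 in shCtl and 1.22 and 1.30 in shM2-3, from 144 and 161 counts against 67 and 65. Its groups did not overlap, and its log2 fold change was -1.35 (SE 0.212, edgeR adjusted p = 6.39e-05). Over all annotated transcripts, exons of other genes cover 38.4% of the NFE2L2 exons. Among these genes are AGPS, at 0.60 on the log2 scale, and HNRNPA3, at -0.36. The libraries carry no strand, so reads from shared stretches cannot be told apart. Whether the counts, made on RefSeq transcripts, hold such reads was not tested. Of the canonical NFE2L2 transcript, 1.83% of read-length windows also match an annotated overlapping transcript, of neither AGPS nor HNRNPA3.

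Enzymes that act on quinones and haem moved in both directions. NQO1 reduces quinones in the cytoplasm and is widely read as an NRF2 target. Its RPKM was 19.0 and 19.0 in shCtl and 49.6 and 48.2 in shM2-3. The groups lay far apart, with a fold change of 2.69 (log2 1.43, SE 0.0489, edgeR adjusted p = 1.19e-11). AIFM2 (FSP1) reduces coenzyme Q at membranes and so stops lipid peroxidation without glutathione. It had an RPKM of 4.81 and 4.42 in shCtl and 1.88 and 2.08 in shM2-3, and 44.9% of the control level remained (log2 fold change -1.16, SE 0.133, edgeR adjusted p = 3.29e-06). HMOX1, the inducible haem oxygenase, had 3.78 and 4.92 in shCtl and 5.71 and 4.74 in shM2-3. These groups overlapped, and the log2 fold change was 0.33 (SE 0.174, edgeR adjusted p = 0.104). Without shCtl replicate 2 its edgeR adjusted p was 0.0253, at 0.53 on the log2 scale. HMOX2, the constitutive form, fell from 6.77 and 6.30 to 4.23 and 4.79 (log2 fold change -0.47). Of the canonical NQO1 transcript, 12.2% of read-length windows also match an annotated overlapping transcript.

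**Figure D3:**
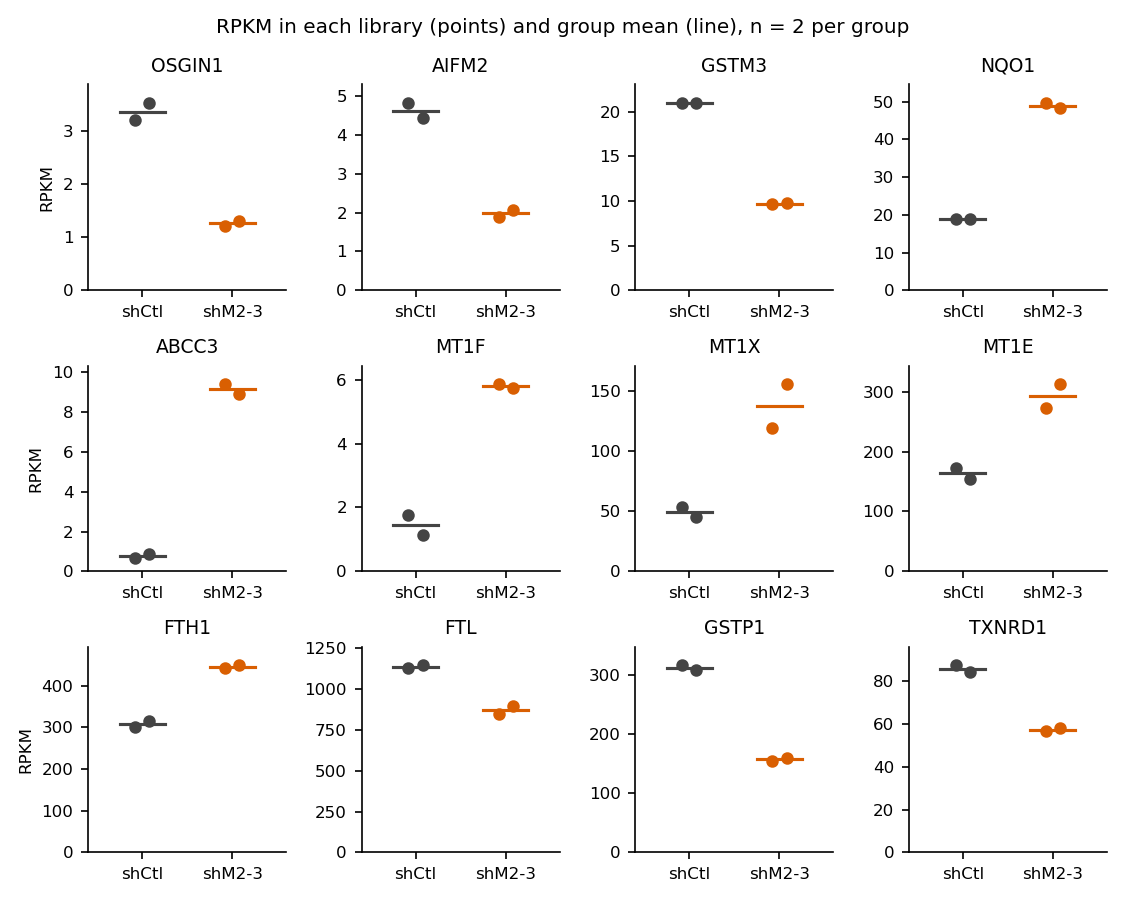
RPKM of 12 genes in each of the 4 libraries (points) with the group mean (line), each panel on its own linear axis from 0. In OSGIN1, AIFM2, GSTM3, FTL, GSTP1 and TXNRD1 both shM2-3 points lie below both shCtl points, and in NQO1, ABCC3, MT1F, MT1X, MT1E and FTH1 they lie above. The shM2-3 points of MT1X and MT1E stand further apart than those of the other genes.

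The genes of glutathione supply did not move together. Glutamate-cysteine ligase, the first and limiting step of synthesis, has a catalytic subunit (GCLC) and a modifier subunit (GCLM). GCLM fell from 6.42 and 6.68 RPKM to 3.91 and 3.59 (log2 fold change -0.74, SE 0.0827, edgeR adjusted p = 2.57e-06). GCLC had 7.15 and 7.21 in shCtl and 6.60 and 5.32 in shM2-3, a difference of -0.20 on the log2 scale (SE 0.0990, edgeR adjusted p = 0.0843). The GCLM/GCLC ratio was 0.897 and 0.927 in shCtl and 0.592 and 0.675 in shM2-3. The GCLC value rested on one library, being -0.06 without shM2-3 replicate 2 and -0.36 without shM2-3 replicate 1 (edgeR adjusted p = 0.626 and 0.0110). GSS, which adds glycine in the last step, fell by 0.27 on the log2 scale. GSR, the reductase that regenerates glutathione with NADPH, rose from 13.4 and 14.8 RPKM to 23.7 and 23.7, a difference of 0.81 on the log2 scale (SE 0.0613, edgeR adjusted p = 4.57e-08).

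In the thioredoxin system, 2 of 3 genes fell and none rose, against 36.4% and 36.3% of all tested genes. Thioredoxin (TXN) fell from 122 and 116 RPKM to 79.8 and 90.8, a difference of -0.41 on the log2 scale (SE 0.0655). TXNRD1, its cytoplasmic reductase, fell from 87.4 and 84.2 to 56.6 and 58.0, a difference of -0.52 on the log2 scale (SE 0.0418, edgeR adjusted p = 9.52e-08). SRXN1 restores overoxidised peroxiredoxins. It had 16.4 and 16.1 RPKM in shCtl and 14.5 and 14.8 in shM2-3, with an edgeR adjusted p of 0.255, and 90.2% of its read-length windows also match an annotated overlapping transcript. The 2 disulfide reductases therefore went opposite ways, and the GSR/TXNRD1 ratio was 0.153 and 0.176 in shCtl and 0.418 and 0.408 in shM2-3.

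Peroxiredoxins remove hydrogen peroxide at the expense of thioredoxin or glutathione. Of the 6, 4 fell and none rose, against 36.4% and 36.3% of all tested genes. The fall was small in each. PRDX4, the form of the endoplasmic reticulum, had the lowest value, from 153 and 164 RPKM to 107 and 113 (log2 fold change -0.47, SE 0.0498). PRDX6 followed at -0.37, mitochondrial PRDX3 at -0.31 and PRDX1 at -0.30, with SEs between 0.0414 and 0.0459. PRDX2 and PRDX5 had log2 fold changes of -0.09 and -0.09 (edgeR adjusted p = 0.101 and 0.107), and passed the threshold as lower in 4 and 5 of 12 alternatives. The summed RPKM of the 6 was 869 and 910 in shCtl and 701 and 718 in shM2-3. Part of this is scale, since the sum over all genes was 324319 and 325563 in shCtl and 287746 and 295653 in shM2-3. Exons of MMACHC, whose own log2 fold change was 0.01, cover 29.8% of the PRDX1 exons.

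Among 3 tested glutathione peroxidases, GPX4 rose. GPX4 reduces lipid hydroperoxides in membranes and is the central guard against ferroptosis. Its RPKM was 123 and 129 in shCtl and 139 and 138 in shM2-3, a small rise (log2 fold change 0.20, SE 0.0435, edgeR adjusted p = 0.00108). The log2 fold change of GPX1, the cytoplasmic form, was -0.09 and that of GPX8, of the endoplasmic reticulum, was 0.11 (edgeR adjusted p = 0.109 and 0.0977). GPX1 passed the threshold as lower in 5 of 12 alternatives, with total counts at an edgeR adjusted p of 0.0295. Of the GPX1 windows, 56.7% also match an overlapping annotated transcript. GPX2 and GPX3 had at most 8 and 13 counts in any library and were not tested.

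Superoxide dismutases turn superoxide into hydrogen peroxide, and catalase (CAT) breaks the peroxide down. Cytoplasmic SOD1 fell from 106 and 110 RPKM to 55.1 and 60.0, leaving 55.8% (log2 fold change -0.84, SE 0.0563, edgeR adjusted p = 1.38e-08). Mitochondrial SOD2 had a far lower RPKM, 5.92 and 5.90 in shCtl and 6.39 and 6.52 in shM2-3. Its counts of 2452 and 2486 in shCtl were near the 2394 and 2521 of SOD1. RPKM divides by transcript length, and the canonical transcript has 14167 bases for SOD2 and 895 for SOD1. The log2 fold change of SOD2 was 0.19 (SE 0.0447, edgeR adjusted p = 0.00163). The SOD2 rise was lost with limma on log2(RPKM + 0.1) and log2(RPKM + 1), where limma's adjusted p was 0.141 and 0.143. The SOD1/SOD2 ratio of RPKM, whose level depends on the lengths used, went from 17.9 and 18.6 to 8.62 and 9.20. CAT rose from 12.3 and 12.3 RPKM to 22.6 and 21.7, a fold change of 1.88 (log2 0.91, SE 0.0669, edgeR adjusted p = 3.51e-08). SOD3, the extracellular form, had at most 5 counts in any library.

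The 4 members that supply NADPH all fell, as did 36.4% of all tested genes. PGD and TALDO1 belong to the oxidative and non-oxidative arms of the pentose phosphate pathway, TKT to the latter, and ME1 is the cytoplasmic malic enzyme. ME1 fell from 15.9 and 16.1 RPKM to 8.35 and 8.63 (log2 fold change -0.85, SE 0.0665, edgeR adjusted p = 6.68e-08). PGD fell from 80.4 and 81.2 to 44.3 and 48.6 (log2 fold change -0.73, SE 0.0507, edgeR adjusted p = 1.92e-08). TALDO1 fell by 0.43 and TKT fell by 0.17, from 142 and 141 RPKM to 118 and 121. None reached a 2-fold change.

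Ferritin, the iron store, is built of a heavy chain (FTH1), which oxidises iron, and a light chain (FTL), and their transcripts moved apart. FTH1 rose from 301 and 315 RPKM to 442 and 449, a fold change of 1.52 (log2 0.60, SE 0.0395, edgeR adjusted p = 1.16e-08). FTL fell from 1127 and 1146 to 846 and 897 (log2 fold change -0.32, SE 0.0396, edgeR adjusted p = 7.36e-06). The FTH1/FTL ratio was 0.267 and 0.275 in shCtl and 0.523 and 0.500 in shM2-3, with no overlap. FTH1 has processed copies in the genome, and 44.2% of its read-length windows also match BEST1 or FTH1 pseudogene transcripts. BEST1, which overlaps it, had between 34 and 45 counts in each library. ACSL4 loads membranes with the polyunsaturated fatty acids that ferroptosis oxidises. It fell from 26.1 and 24.1 RPKM to 14.4 and 14.1, leaving 59.5% (log2 fold change -0.75, SE 0.0508, edgeR adjusted p = 1.59e-08).

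Of the 3 efflux transporters, which export glutathione and glucuronide conjugates, ABCC3 had the highest log2 fold change among the 44 tested members. It passed the RPKM filter only through shM2-3, the group where it is high. Its counts were 89 and 120 in shCtl against 1559 and 1339 after depletion, or 0.655 and 0.869 RPKM against 9.39 and 8.90. The fold change was 12.5 (log2 3.65, SE 0.109, edgeR adjusted p = 2.91e-12), and over the alternatives tried it ranged from 2.53 to 3.86 on the log2 scale. ABCC3 lies on chromosome 17 from 50634777 to 50692253 (plus strand, hg38). ABCC1 rose from an RPKM of 12.7 and 13.5 to 16.7 and 16.0 (log2 fold change 0.39, SE 0.0491). ABCC2 had 4.25 and 4.22 in shCtl and 4.41 and 3.72 in shM2-3, a difference of 0.01 on the log2 scale (SE 0.0935), and its sign changed with the scaling.

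The 4 metallothioneins, a cluster on chromosome 16, all rose, MT2A only narrowly, against 36.3% of all tested genes. MT1X had 53.4 and 44.9 RPKM in shCtl and 119 and 156 in shM2-3, a fold change of 2.92 (log2 1.55, SE 0.121, edgeR adjusted p = 6.63e-08). MT1F rose from 20 and 13 counts to 81 and 72, or from 1.77 and 1.13 RPKM to 5.85 and 5.75. Its fold change of 4.17 (log2 2.06, SE 0.376, edgeR adjusted p = 2.4e-04) was the least precise of the 7 called members. MT1E rose from 173 and 155 RPKM to 272 and 312, a difference of 0.90 on the log2 scale (SE 0.0676), and it passed 2-fold without shM2-3 replicate 1 (1.00). MT2A, the most abundant, had 1237 and 1265 in shCtl and 1216 and 1445 in shM2-3. Its groups overlapped, and its log2 fold change of 0.15 (edgeR adjusted p = 0.0417) went to 0.02 without shM2-3 replicate 2 (edgeR adjusted p = 0.683). It failed the threshold in 7 of 12 alternatives, so the rise of MT2A is the least certain of the 14. In MT1X, MT1E and MT2A, shM2-3 replicate 2 was the higher of the depleted pair. The MT1X/MT2A ratio was 0.0432 and 0.0355 in shCtl and 0.0979 and 0.108 in shM2-3, so the less abundant gene gained share in both libraries. No read-length window of MT1E, MT1F or MT2A was found in transcripts of another gene. Of the MT1X windows, 6.67% also match an overlapping annotated transcript.

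Glutathione transferases join glutathione to electrophiles, and both members fell, as did 36.4% of all tested genes. GSTP1 fell from 316 and 307 RPKM to 154 and 160, leaving 52.7% (log2 fold change -0.92, SE 0.0447, edgeR adjusted p = 4.37e-10). GSTM3 fell from 21.0 and 20.9 to 9.63 and 9.82, leaving 48.6% (log2 fold change -1.04, SE 0.0552, edgeR adjusted p = 1.18e-09). The replicates of each lay close together, and the 2 genes stand on either side of the 2-fold limit with nearly equal values.

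The aldo-keto reductases, which reduce aldehydes and ketones, were mostly at the limit of detection. AKR1B1 had 61.1 and 61.0 RPKM in shCtl and 56.3 and 56.3 in shM2-3 (log2 fold change -0.05, edgeR adjusted p = 0.302). AKR1C3 had 14.3 and 13.4 against 15.5 and 14.4 (log2 fold change 0.17, edgeR adjusted p = 0.0662). AKR1B10, a gene often read as an NRF2 reporter, was counted 0 and 1 times in shCtl against 30 and 33 times after depletion. Its RPKM stayed under 1, so it was not among the tested genes. Against 3 counts in a control library it was at least 8.36-fold higher, and in the fit without a filter its edgeR adjusted p was 6.97e-08. AKR1C1 had 21 and 25 counts against 40 and 30, and AKR1C2 had 6 and 6 against 8 and 18 (edgeR adjusted p = 0.469 and 0.389 without a filter). These 2 genes share sequence, with 7.91% and 17.2% of read-length windows common to another annotated transcript, and their counts are uncertain.

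The other genes of the pathway were read from 6 lists of genes that are not members. Of 137 tested genes in all, 17 were called lower and 8 called higher, and 64 fell and 36 rose. That is 18.2% called and 73% changed, against 18.2% and 72.7% of all tested genes (8.93% called lower and 9.24% called higher). Their median log2 fold change was -0.16.

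Among 16 partners and regulators of NRF2, 3 were called higher and none lower, while 7 rose and 3 fell without the fold limit. The shares were 18.8% called and 62.5% changed, against 18.2% and 72.7% of all tested genes. SQSTM1 (p62), which takes KEAP1 into autophagy, rose from 4799 and 5072 counts to 12146 and 11374 (log2 fold change 1.11, SE 0.0421). MAFG, a small MAF protein that pairs with NRF2 on DNA, rose 2.30-fold (SE 0.0624 on the log2 scale). BACH2, a repressor that also pairs with small MAF proteins, had 1.43 (SE 0.150), but passed the RPKM filter only through shM2-3. The 3 that fell were of the same families. They were the small MAF genes MAFF (log2 fold change -0.72) and MAFK (-0.85) and the repressor BACH1 (-0.72). BACH1 had a mean of 26.2 RPKM in shCtl, against 0.740 for BACH2. Of 21 other NRF2 targets, 2 were called lower, 2 called higher, 10 fell and 7 rose. Here 19% were called and 81% changed, against the same 18.2% and 72.7%. BLVRB fell by 1.19 and PTGR1 fell by 1.13, whereas ABCC5 rose by 1.36 and TRIM16 by 1.24 on the log2 scale. The directions within this list were mixed.

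Of 32 other glutathione and thioredoxin genes, 5 were called lower and none higher, and 17 fell and 4 rose. That is 15.6% called and 65.6% changed, against 18.2% and 72.7% of all tested genes. TXNRD2, the mitochondrial thioredoxin reductase, fell from 1082 and 1232 counts to 364 and 281 (log2 fold change -1.99, SE 0.0937). TXNIP, the inhibitor of thioredoxin, fell by 1.27 and the glutaredoxin GLRX to 43.4% of control. Among 17 further genes of the pentose phosphate pathway and NADPH supply, 4 were called lower and 1 higher, and 13 fell and 4 rose, with a median of -0.65. In this list 29.4% were called and 100% changed, against the same 18.2% and 72.7%. ALDH1L1 had a log2 value of -2.06, mitochondrial ME2 -1.29 and MTHFD2 -1.09. H6PD, which makes NADPH inside the endoplasmic reticulum, rose 2.15-fold.

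Of 36 genes of ferroptosis and iron handling, 5 were called lower and 1 higher, and 16 fell and 8 rose. The shares were 16.7% called and 66.7% changed, against 18.2% and 72.7% of all tested genes. SCD, which makes monounsaturated fatty acids, fell from 32420 and 33597 counts to 7259 and 6679 (log2 fold change -2.39, SE 0.0376). DHCR7, the last enzyme of cholesterol synthesis, fell by 1.75, and the metal importer SLC39A8 fell by 1.22. PTGS2 rose by 1.40, and it too passed the RPKM filter only through shM2-3. Of 18 genes of the metal response and selenoprotein synthesis, 1 was called lower (PSTK, which prepares the selenocysteine transfer RNA, at -1.43) and 1 higher, while 6 fell and 7 rose. Here 11.1% were called and 72.2% changed, against the same 18.2% and 72.7%. The gene called higher, the selenium carrier SELENOP, counted 3 and 0 in the shCtl libraries against 116 and 86 after depletion, passed the filter in the same way, and was at least 26.4-fold higher against 3 counts in a control library.

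**Figure D4:**
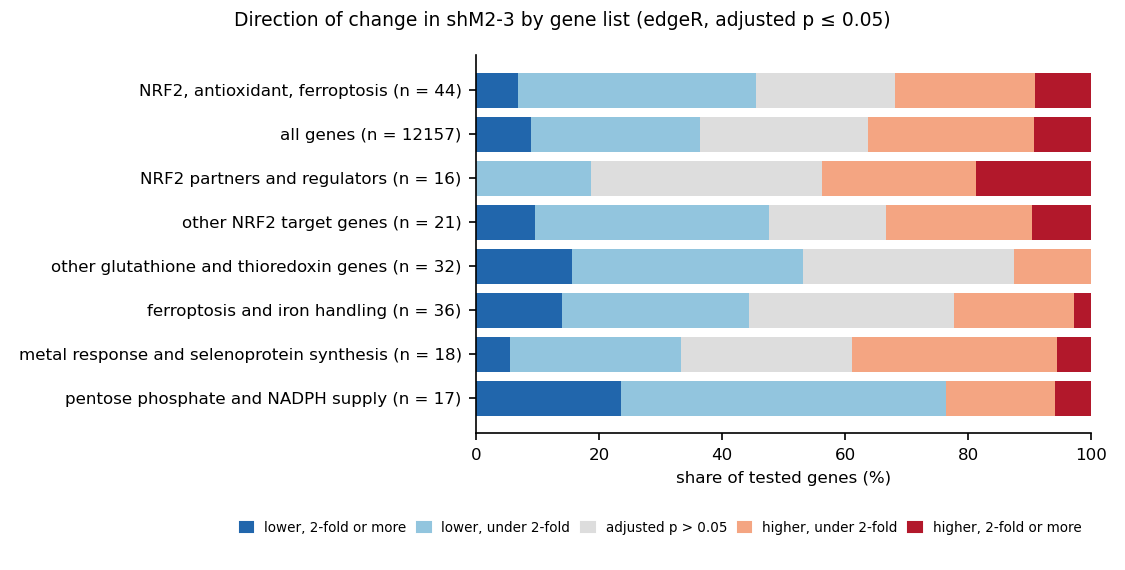
Share of tested genes (%) that were lower or higher in shM2-3 at an adjusted p of 0.05 or less, for the 44 members, for all 12157 tested genes and for the 6 lists, with the number tested beside each name. Dark colours mark a fold change of 2 or more. In the glutathione and thioredoxin list 5 genes are in the dark lower part and none in the dark higher part, and in the list of NRF2 partners the reverse holds with 3 and none.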

How the data were processed

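RNA of 4 libraries was analysed (2 shCtl, 2 shM2-3, grouped by their labels). The authors aligned paired reads of 150 bases to hg38 with HISAT2 2.0.4, removed ambiguous reads and those with low mapping quality, and quantified RefSeq transcripts in Partek 7.18. The estimated counts deposited are not normalized. The RPKM values deposited were scaled by the authors for transcript length and mapped reads. Between 42.4% and 48.6% of the estimated counts of a library are exactly whole (no tolerance), so they were rounded, and then fitted by the quasi-likelihood functions of edgeR 4.0.16 under R 4.3.3, after TMM scaling and without a block. The biological coefficient of variation was 0.0485. A standard error is the log2 fold change divided by the square root of F. Members, role groups and lists were chosen with earlier results of these data known. All members are named, and called genes of each list (at most 3 per direction), with the 3 NRF2 partners that fell. Ratio pairs were chosen after values had been seen. Overlaps and read-length windows (150 bases of the canonical transcript found in another gene's transcripts) come from GENCODE release 44. Alternatives used DESeq2 1.42.0 and limma 3.58.1. The fits were tested on simulated data.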

Additional observations from a re-analysis of the deposited data

How the results depend on the processing

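The counts of members and their median log2 fold change were recomputed under the alternatives below. With library totals for scaling, DESeq2, edgeR's classic exact test, the filterByExpr filter or no filter, 3 members were called lower and 4 higher, as before. With the replicate number as a block, 3 were called lower and 4 higher, 20 fell and 14 rose, with a median of -0.0934. The count that fell against rose was 23 against 13 with library totals, 24 against 14 with no filter and 25 against 12 with both limma fits, and without 1 library 20 to 22 fell and 13 to 15 rose. The numbers are not known to pair the samples, since deviations of same-numbered libraries correlated at -0.029. A fold limit of 1.5 gave 9 lower and 9 higher. With limma on log2(RPKM + 1), 1 was called lower and 4 higher, because OSGIN1 and AIFM2 came to -0.946 and -0.915 on that compressed scale. The median was -0.158 there and -0.159 with limma on log2(RPKM + 0.1), against -0.0937 in the edgeR fit. The log2 fold change of ABCC2 (0.0098) turned to -0.0249 with total counts, -0.0071 with filterByExpr, -0.0210 with no filter, -0.0622 and -0.0506 with limma on log2(RPKM + 0.1) and log2(RPKM + 1), and ranged from -0.113 to 0.122 when libraries were left out. The cause was not tested. Without 1 library, 3 members were called lower each time and 4 or 5 higher, the fifth being MT1E at 1.0032. Of 528 single-gene values under alternatives, 519 kept their direction and whether they were called (adjusted p and 2-fold together), while 30 crossed the adjusted p limit, in HMOX1, GCLC, SRXN1, PRDX2, PRDX5, GPX1, SOD2, AKR1B1 and MT2A. Only 2 libraries per group and few counts limit MT1F, OSGIN1 and the 6 untested genes.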
